A study of Mus musculus with 4 samples.

Results

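Brown and beige fat genes are the genes by which heat-producing fat is told from storage fat, and they were read here in a white fat pad. The set held 10 genes of the 22180 on the arrays: the effectors Ucp1, Cidea, Dio2 and Elovl3, the regulators Prdm16, Ppargc1a, Ppargc1b, Ppara and Esrra, and the surface marker Tmem26. They were chosen by name, and each is represented by the probe that carries its symbol alone and has the highest mean over the arrays. No measured value entered the choice of genes, but the set was proposed with earlier results of these data known.

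RNA came from epigonadal white adipose tissue, the visceral depot next to the testis, of male mice fasted before collection, and each of the 4 genotypes had 1 array. LDKO mice carried floxed Irs1 and Irs2, the insulin receptor substrates, together with Albumin-Cre, whose albumin promoter acts in hepatocytes. Their control was the Irs1/2-flox line without Cre. LTKO mice carried floxed Irs1, Irs2 and FoxO1 with Albumin-Cre, and their control was the Irs1/2:FoxO1-flox line without Cre. All 4 groups thus shared the floxed Irs1 and Irs2 alleles, and LTKO mice and their control also shared the floxed FoxO1 alleles. The labels give an age of 4 months for LDKO and for LTKO mice and none for the control mice. Whether an array holds RNA of a single mouse or of several is not stated in the sources used here. With 1 array per group there is no replicate, so no value below has an error or a test, and precision is limited by how few arrays there are.

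Levels are log2 signals, on which 1 unit is 2-fold, and differences are Cre line minus floxed control unless stated. A gene was counted as apart at a difference of at least 1 unit, if the higher of the arrays compared reached the level of the median gene, 5.15. The 10 fat cell markers, such as adiponectin and perilipin, averaged 10.98 in LDKO against 10.79 in the Irs1/2-flox control, and 10.86 in LTKO against 10.98 in the Irs1/2:FoxO1-flox control, so the labelled tissue was borne out on every array. Other tissues differed more: 11 of 12 skeletal muscle markers were highest in the Irs1/2-flox control, where they averaged 5.72, with 4.92 in LDKO, 4.81 in LTKO and 4.92 in the Irs1/2:FoxO1-flox control. Hepatocyte markers averaged 7.04 in LTKO and between 5.40 and 5.64 elsewhere, and 8 of 10 were highest there. Epididymis and sperm markers averaged 6.54 in LTKO and between 4.25 and 4.31 elsewhere, with 10 of the 11 measured highest there. The summed signal of the muscle markers was 497 in LDKO against 1097 in the Irs1/2-flox control, and 603 in LTKO against 607 in the Irs1/2:FoxO1-flox control. That of the hepatocyte markers was 9319 in LDKO against 9001 in the Irs1/2-flox control, and 9885 in LTKO against 9388 in the Irs1/2:FoxO1-flox control. That of the epididymis and sperm markers was 1412 in LDKO against 1432 in the Irs1/2-flox control, and 2317 in LTKO against 1749 in the Irs1/2:FoxO1-flox control. Most of the hepatocyte sum on every array was Cyp2e1, between 13.04 and 13.14, and most of the epididymis and sperm sum was Odf1. Odf1 had 10.40 in LTKO and 10.66 in the Irs1/2:FoxO1-flox control, where it was highest. Cyp2e1 was lowest in LTKO, so the hepatocyte sums do not gauge the 8 markers that were highest there. In the hepatocyte sum and in the epididymis and sperm sum the other markers weigh less, while the mean levels above weigh every gene alike. No marker has a value of 0 on this scale.

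Brown fat cells burn fuel in mitochondria whose inner membrane contains uncoupling protein, so that energy leaves as heat. Noradrenaline starts this through beta-adrenergic receptors and cyclic AMP, which release fatty acids and raise transcription of thermogenic genes. The coregulator Prdm16 sets the brown and beige cell fate, the coactivators Ppargc1a and Ppargc1b drive mitochondrial genes through nuclear receptors such as Esrra and Ppara, and beige cells arise in white depots, in mice more readily in subcutaneous than in epigonadal fat.

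Ucp1, Dio2 and Ppargc1a are textbook targets of the cyclic AMP pathway, and their promoters are shown here. Their levels on the arrays are described below, and the 2 probes of Dio2 disagree on the order of the arrays. A link of promoter letters to these levels was not tested. The sequences are those of RefSeq in GRCm38.p6, from 250 bases before to 50 bases after the start of the gene, 5′ to 3′ on the gene's strand. Capitals mark matches on either strand to the cyclic AMP response element TGACGTCA, to its half-site TGACG, which lies within the full element and so overlaps it, and to the nuclear receptor half-site AGGTCA.
Ucp1, chr8:83290098-83290397, plus strand: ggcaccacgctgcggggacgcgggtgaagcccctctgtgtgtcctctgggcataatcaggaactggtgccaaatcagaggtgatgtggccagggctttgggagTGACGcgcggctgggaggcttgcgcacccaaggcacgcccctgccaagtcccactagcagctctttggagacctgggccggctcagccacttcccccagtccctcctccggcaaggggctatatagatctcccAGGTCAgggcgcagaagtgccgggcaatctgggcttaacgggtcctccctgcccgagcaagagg
Dio2, chr12:90738989-90739288, minus strand: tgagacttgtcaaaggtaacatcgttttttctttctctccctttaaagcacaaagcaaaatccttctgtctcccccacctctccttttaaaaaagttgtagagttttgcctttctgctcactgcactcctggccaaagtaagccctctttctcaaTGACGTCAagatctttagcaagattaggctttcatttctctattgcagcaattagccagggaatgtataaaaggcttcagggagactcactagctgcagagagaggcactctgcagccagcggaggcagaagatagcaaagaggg
Ppargc1a, chr5:51567676-51567975, minus strand: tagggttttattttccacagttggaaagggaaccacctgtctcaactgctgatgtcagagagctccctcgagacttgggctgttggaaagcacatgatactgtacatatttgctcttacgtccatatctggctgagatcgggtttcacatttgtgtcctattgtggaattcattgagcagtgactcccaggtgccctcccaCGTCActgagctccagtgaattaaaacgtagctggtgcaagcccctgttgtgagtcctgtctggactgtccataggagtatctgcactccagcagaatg
Counted from 1 at the 5′ end, the Dio2 window holds the full element at positions 156 to 163. The Ucp1 window holds a cyclic AMP half-site at 104 to 108 and a nuclear receptor half-site at 237 to 242, and the Ppargc1a window a cyclic AMP half-site on the opposite strand at 202 to 206. Of all 32851 promoter windows of the same length, 1.79% hold the full element, 20.8% its half-site and 16.3% the nuclear receptor half-site, so the half-sites are common. Of the 7 member genes whose windows were searched, Ppara also holds a cyclic AMP half-site, and those of Prdm16, Esrra and Tmem26 have none of these letters. Windows of Cidea, Ppargc1b and Elovl3 were not searched. A match describes the letters only.

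**Figure D1:**
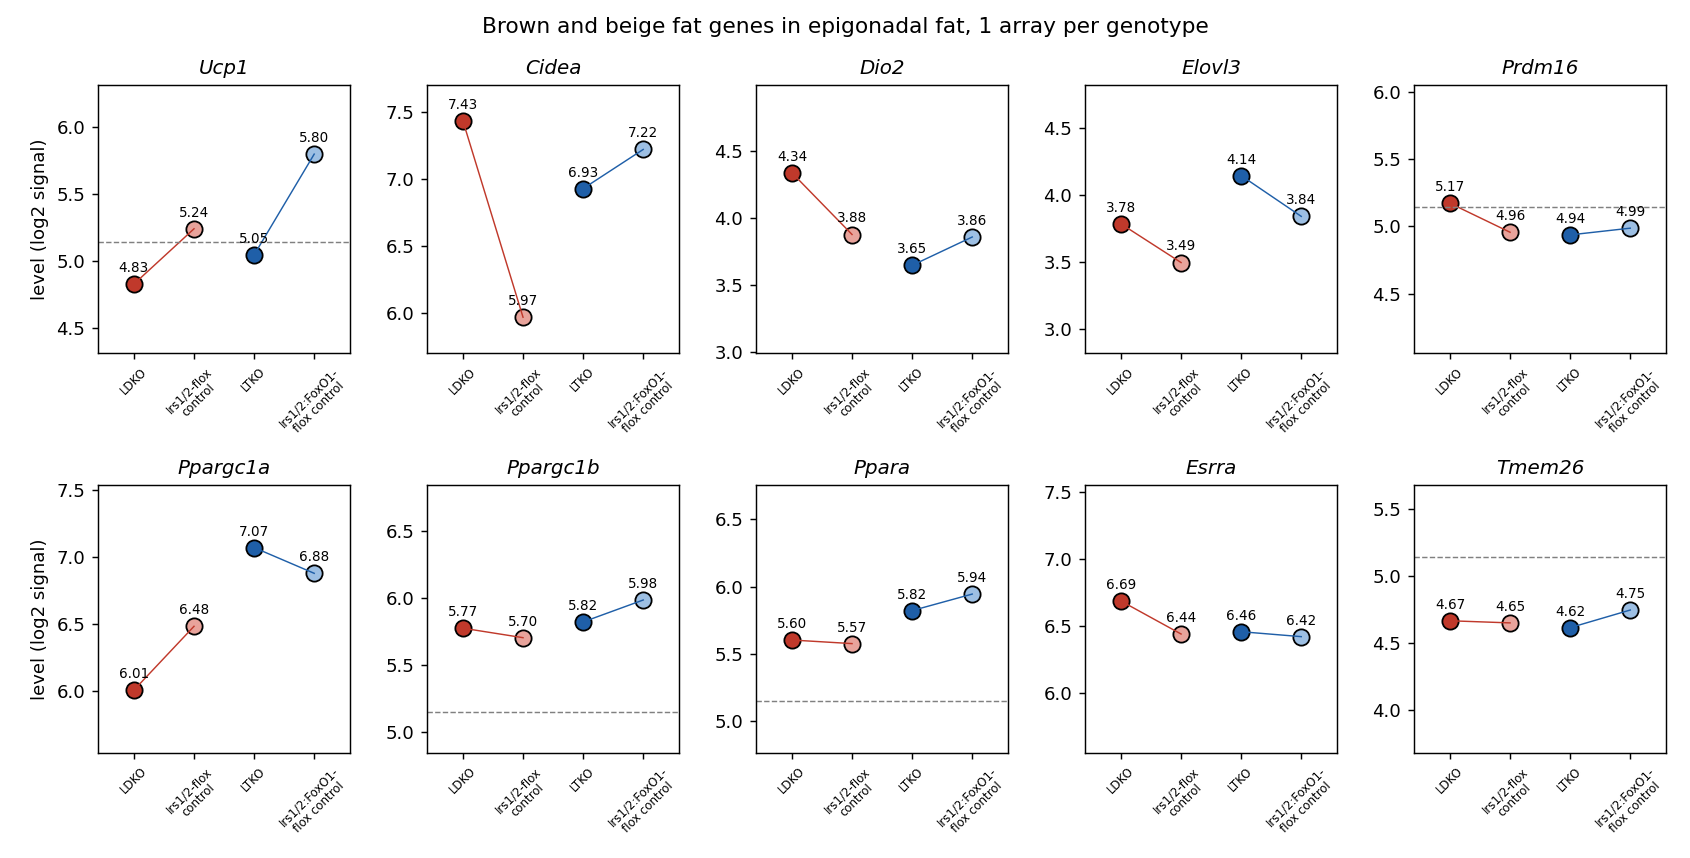
Level of each of the 10 genes (vertical axis, log2 signal, each panel 2 units high) on the 4 arrays, with LDKO and LTKO each left of their floxed control and joined to it by a line. The dashed line is the median gene at 5.15. Cidea is low on the Irs1/2-flox control alone (5.97), Ppargc1a is lowest in LDKO (6.01), and Ucp1 is lower in both Cre lines than in both controls.

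Ucp1, the uncoupling protein itself, had 4.83 in LDKO against 5.24 in the Irs1/2-flox control, and 5.05 in LTKO against 5.80 in the Irs1/2:FoxO1-flox control. Both Cre lines lay below both controls, and of the 10 genes it was the only one with that arrangement. The same arrangement held for 19.6% of the 11958 genes that reached the median gene on any array. The difference was −0.41 in LDKO, or 1.33-fold lower, and −0.75 in LTKO, or 1.68-fold lower. Neither reached 2-fold, and the controls themselves were 0.56 apart. In LTKO it was the 31st lowest difference of 11533 genes, and 2.81% of genes differed by more in either direction. Set against the other control, LDKO differed by −0.97 and LTKO by −0.19. All 4 levels lie near the median gene, and only those of the 2 controls reach it. Ucp1 thus passed the filter through its higher arrays alone, so its rank and shares lean on the filter and only describe these arrays. In a tissue extract, fewer cells of a kind and less RNA per cell cannot be told apart.

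Cidea, a lipid droplet protein that promotes fusion and enlargement of droplets in brown fat cells, gave the widest differences of the set. Its level was 7.43 in LDKO against 5.97 in the Irs1/2-flox control, and 6.93 in LTKO against 7.22 in the Irs1/2:FoxO1-flox control. The low array was the Irs1/2-flox control, and the other 3 lay within 0.50 of each other. The difference in LDKO was 1.46, or 2.76-fold, the 19th highest of 11533 genes. Against the other control it was 0.21. In LTKO the difference was −0.29, and 0.96 against the other control. The Irs1/2:FoxO1-flox control was itself 1.25, or 2.38-fold, above the Irs1/2-flox control, the 17th highest of the 11432 genes compared between the controls. On the Irs1/2-flox control array, on which Cidea was lowest, the fat cell markers had their lowest mean and the muscle, macrophage and mesothelial markers their highest. The mesothelial list had a mean of 7.11 there against 6.44 in LDKO, 6.74 in LTKO and 6.65 in the Irs1/2:FoxO1-flox control. The macrophage list had 8.66 there against 8.17 in LDKO, 8.10 in LTKO and 8.50 in the Irs1/2:FoxO1-flox control. Over the fat cell markers the median difference was 0.08 in LDKO and 0.16 between the controls. The part of all these cells in the Cidea values was not tested.

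Dio2, the deiodinase that makes active thyroid hormone inside brown fat cells, was dim, at 4.34 in LDKO against 3.88 in the Irs1/2-flox control and 3.65 in LTKO against 3.86 in the Irs1/2:FoxO1-flox control. LDKO was the highest array and LTKO the lowest, and the controls differed by −0.02. The differences were 0.46 in LDKO and −0.21 in LTKO by this probe. A second, dimmer probe had 3.13 in LDKO against 3.08 in the Irs1/2-flox control and 3.21 in LTKO against 3.12 in the Irs1/2:FoxO1-flox control, with LTKO the highest, so the 2 probes disagree on the order of the arrays. Elovl3, an elongase of saturated and monounsaturated fatty acids that is induced by cold in brown fat, was also dim. It had 3.78 in LDKO against 3.49 in the Irs1/2-flox control, and 4.14 in LTKO against 3.84 in the Irs1/2:FoxO1-flox control. Each Cre line was higher than its own control, by 0.29 and 0.30, a direction that Esrra alone of the other genes shared in both lines, but against the other control LDKO was at −0.06. Its highest array was LTKO, on which the hepatocyte and epididymal markers were highest too, and the part of those tissues in its level was not tested.

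Among the regulators, Ppargc1a, the coactivator that links cyclic AMP to mitochondrial and thermogenic genes, varied most. It had 6.01 in LDKO against 6.48 in the Irs1/2-flox control, and 7.07 in LTKO against 6.88 in the Irs1/2:FoxO1-flox control. LDKO was below both controls and LTKO above both. LDKO was −0.48 from the Irs1/2-flox control and −0.87 from the other line, and LTKO was 0.19 from the Irs1/2:FoxO1-flox control and 0.59 from the other. Set directly against LDKO, LTKO was 1.06 higher, or 2.09-fold, the 144th highest difference of 11660 genes, a comparison that also holds any difference between the floxed lines. That value stood just past 2-fold, and it was 0.99 after a further quantile normalization and after removal of a curve on level. Skeletal muscle also expresses Ppargc1a. Muscle markers were highest on the Irs1/2-flox control and hepatocyte and epididymal markers on LTKO, and the part of these tissues in its level was not tested.

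The other regulators were flatter. Ppargc1b, the related coactivator, had 5.77 in LDKO against 5.70 in the Irs1/2-flox control and 5.82 in LTKO against 5.98 in the Irs1/2:FoxO1-flox control. Ppara, the nuclear receptor for fatty acids that induces fatty acid oxidation, had 5.60 in LDKO against 5.57 in the Irs1/2-flox control and 5.82 in LTKO against 5.94 in the Irs1/2:FoxO1-flox control. For both genes the floxed FoxO1 line was the higher of the 2 lines with and without Cre, and their differences in LDKO and LTKO were between −0.16 and 0.07. Esrra, the orphan nuclear receptor that acts with the coactivators on respiratory genes, had 6.69 in LDKO against 6.44 in the Irs1/2-flox control and 6.46 in LTKO against 6.42 in the Irs1/2:FoxO1-flox control. LDKO stood 0.25 above its own control and 0.27 above the other, while the other 3 arrays lay close together. It was the only gene of the set with both Cre lines above both controls, where 11.3% of the 11958 genes were. Prdm16 had 5.17 in LDKO against 4.96 in the Irs1/2-flox control and 4.94 in LTKO against 4.99 in the Irs1/2:FoxO1-flox control by its brighter probe, a difference of 0.22 in LDKO. Its dimmer probe gave −0.17 in LDKO, so the direction depends on the probe. Tmem26, a surface protein used to mark beige cells, was the flattest of all, at 4.67 in LDKO against 4.65 in the Irs1/2-flox control and 4.62 in LTKO against 4.75 in the Irs1/2:FoxO1-flox control.

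**Figure D2:**
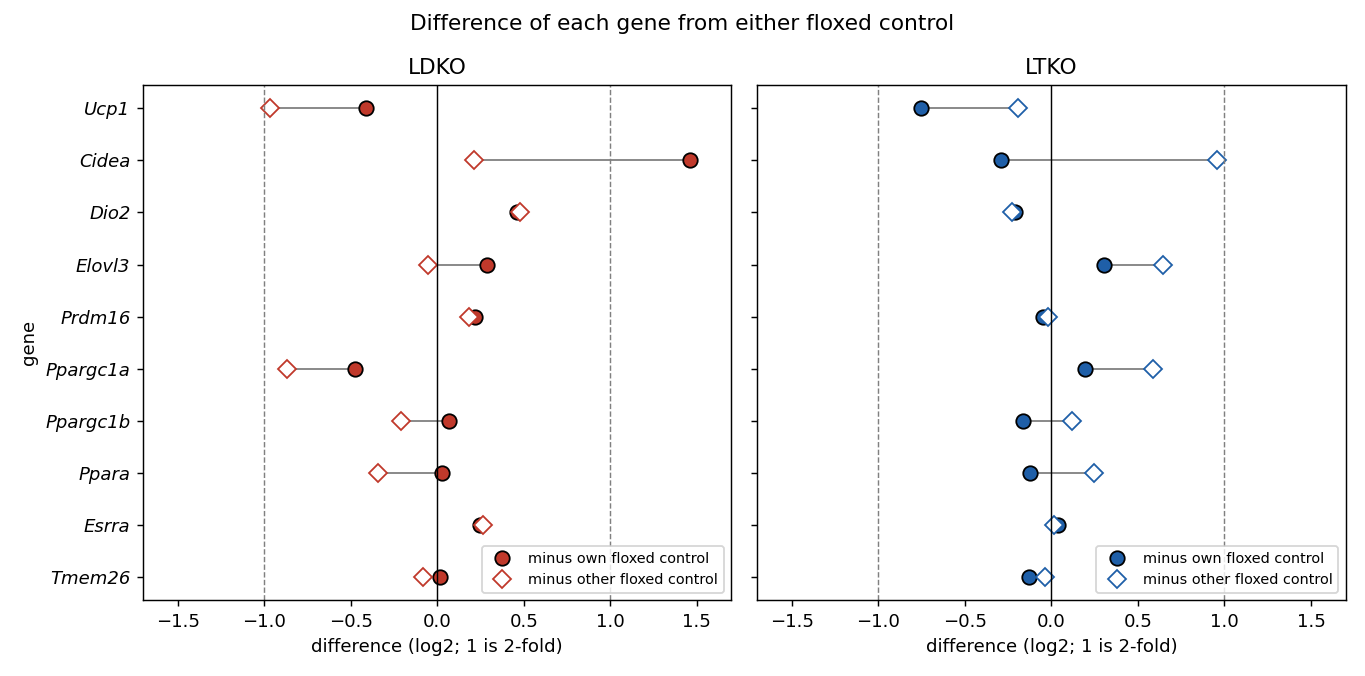
Difference of each gene (rows) in LDKO and in LTKO (log2, horizontal axis), from its own floxed control (filled circles) and from the other floxed control (open diamonds), with dashed lines at 2-fold. The choice of control moves Cidea in LDKO between 1.46 and 0.21, while Dio2, Prdm16 and Esrra hardly move.

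Over the set, 1 of the 7 genes past the filter was 2-fold apart in LDKO, Cidea, where 1.2% of all 11533 genes were. None of the 6 past the filter was so in LTKO, where 1.78% of genes were. Those were 200 higher and 5 lower genes, a split that became 97 higher and 47 lower with the other control. Between the 2 controls it was 1 of 6, again Cidea, against 0.77% of 11432 genes, and with LTKO directly against LDKO it was 1 of 6, Ppargc1a, against 2.11% of 11660 genes. At 1.5-fold the only genes of the set past the filter were Cidea in LDKO, where 6.74% of all genes were apart, Ucp1 in LTKO, where 4.41% were, Cidea between the controls, where 4.55% were, and Ppargc1a for LTKO against LDKO, where 7.98% were. A 2-fold difference of LDKO from both controls in one direction was seen in 0 genes of the set and in 0.518% of the 11958 genes. Of the 7 genes that reached the median gene on any array, LDKO lay above both controls for Cidea, Prdm16 and Esrra, as it did for 27.6% of genes, and below both for Ucp1 and Ppargc1a, as for 43.7%. LTKO lay above both for Ppargc1a and Esrra, as for 28.1% of genes, and below both for Ucp1 and Prdm16, as for 33.4%. Dio2, Elovl3 and Tmem26 did not reach the filter in any of these comparisons, and Prdm16 did so only where LDKO was one of the arrays. Prdm16 thus entered through LDKO alone, and Ucp1 through the controls alone, so their places above or below the controls lean on the filter. By its dimmer probe Prdm16 was lowest in LDKO. In LTKO its brighter probe lay only −0.02 from the Irs1/2-flox control.

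By direction over all 10 genes, 8 were higher and 2 lower in LDKO, with a median of 0.14, where the median over the 22180 genes was 0.00 and 50.1% were higher. LTKO against LDKO gave 5 higher and 5 lower. In LTKO against its own control 3 were higher and 7 lower, with a median of −0.13, against −0.02 and 45.6% over all genes. Both balances turned with the control used. Set against the other control, LDKO had 4 genes higher and 6 lower, with a median of −0.07, where 50.3% of all genes were higher. LTKO set against the other control had 6 higher and 4 lower, with a median of 0.07, where 49.1% of all genes were higher. Between the controls 8 were higher in the Irs1/2:FoxO1-flox control, with a median of 0.31, against 0.00 and 50.8% over all genes. The LDKO comparison and the comparison of the controls share the Irs1/2-flox control array. That array was the highest for 0 of the 10 genes and the lowest for 4 of them, Cidea, Elovl3, Ppargc1b and Ppara, where it was the highest for 23.9% and the lowest for 23.7% of all genes past the filter. LDKO was highest for Cidea, Dio2, Prdm16 and Esrra, where it was highest for 22.7% of all genes past the filter. By their dimmer probes Dio2 was highest in LTKO and Prdm16 lowest in LDKO. LTKO was highest for Elovl3 and Ppargc1a, against 21.8% of all genes, and the Irs1/2:FoxO1-flox control for the other 4, against 31.6%. The spread from the lowest to the highest array ran from 0.13 for Tmem26 to 1.46 for Cidea. It was wider than the 0.34 of the median gene for Ucp1, Cidea, Dio2, Elovl3, Ppargc1a and Ppara, and narrower for Ppargc1b, Esrra, Prdm16 and Tmem26.

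**Figure D3:**
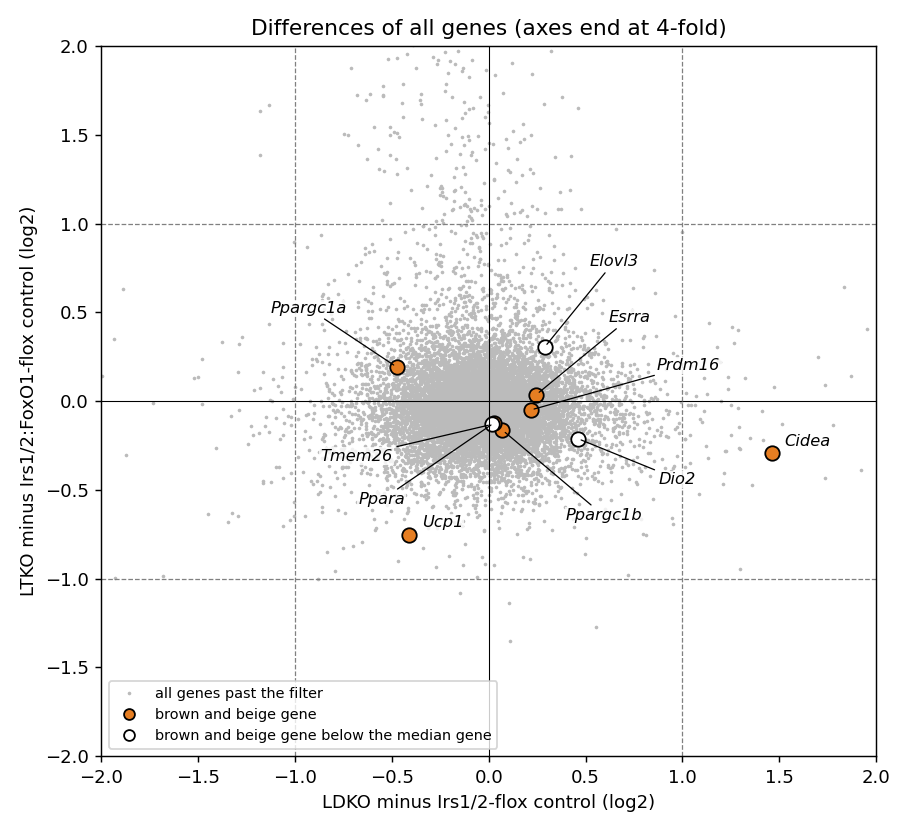
Difference in LTKO (vertical axis) against difference in LDKO (horizontal axis), each from its own floxed control on the log2 scale, for all 11958 genes that reach the median gene on any array (grey) and the 10 brown and beige genes (orange, or white where no array reaches the median gene). Axes end at 4-fold and genes beyond are not drawn. Cidea lies far right at 1.46 and −0.29, Ucp1 low at −0.41 and −0.75, and the others within the main cloud.

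Of the 2 genes whose arrays spanned at least 1 unit, the most alike profiles were sought among 10627 genes by root mean square distance of the 4 centred levels. Those most like Cidea were Zdhhc2 (distance 0.09), Aldh3b2 (0.12) and Hcar2, a receptor that restrains lipolysis (0.13), each lowest in the Irs1/2-flox control. Their LDKO differences were 1.29, 1.22 and 1.13. Those most like Ppargc1a were Rogdi (0.02), Ahcy (0.04) and Mpzl2 (0.07), each lowest in LDKO and highest in LTKO. A likeness over 4 arrays is a description of these arrays.

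**Figure D4:**
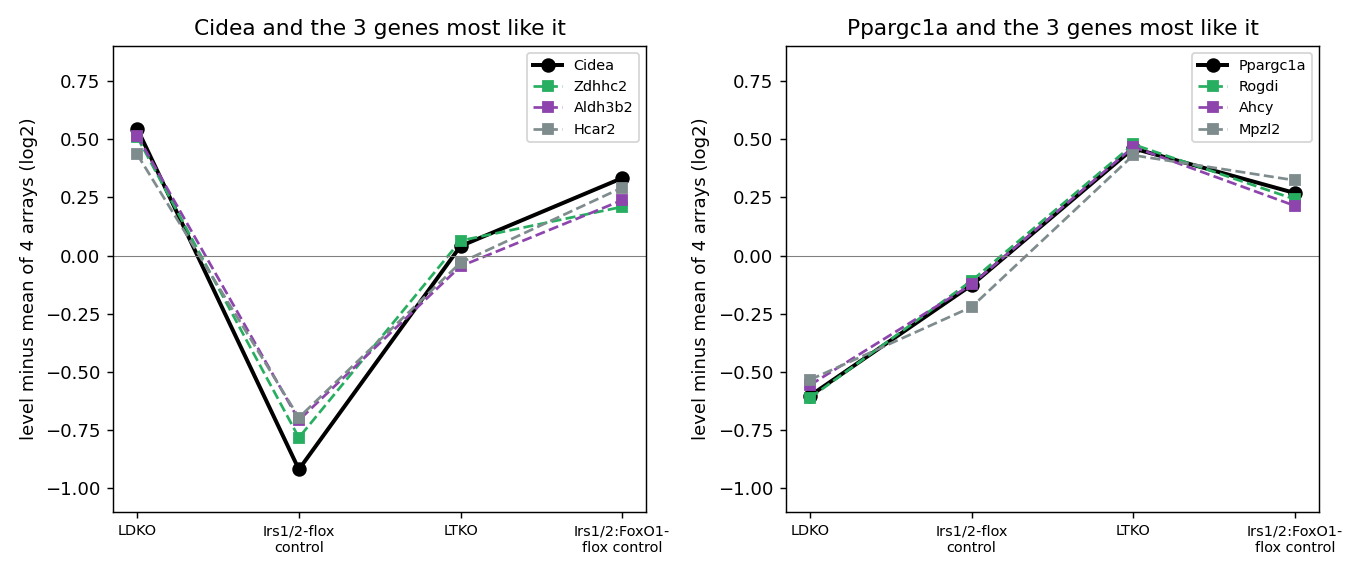
Levels of Cidea and Ppargc1a and of the 3 genes most like each, as log2 level minus the gene's own mean of 4 arrays (vertical axis), on the 4 arrays (horizontal axis, where lines only join the points of a gene). The Cidea group dips on the Irs1/2-flox control alone, and the Ppargc1a group is lowest in LDKO and highest in LTKO.

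The targets of these regulators were read next. Of 14 measured targets of the Ppargc1 coactivators and Esrra, 13 had a positive difference in LDKO, with a median of 0.51, against 50.1% and 0.00 over all genes, while Ppargc1a itself was lower there. Fat cell markers had a higher mean in LDKO too, 10.98 against 10.79, mostly through Slc2a4 at 1.03 and Plin1 at 0.49, while their median difference was 0.08. Muscle markers were lower, and the part of these cells was not tested. Cytochrome c (Cycs) was the 1 gene past 2-fold at 1.18, the TCA cycle enzymes Idh3a and Cs were at 0.89 and 0.80, and the mitochondrial superoxide dismutase Sod2 at 0.75. Tfam, the mitochondrial transcription factor, was the 1 lower gene, at −0.43. Between the controls 13 of the 14 were also higher, with a median of 0.28, and against the other control the LDKO median was 0.25, with 11 higher and 3 lower. In LTKO 4 were higher and 10 lower, with a median of −0.07, but all 14 were higher than in the other control, with a median of 0.23.

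Of 15 measured targets of Ppara, 6 were higher and 9 lower in LDKO, with a median of −0.01, and 9 were higher and 6 lower in LTKO, with a median of 0.10. Against the other control 7 were higher and 8 lower in LDKO, with a median of −0.05, but 14 were higher and 1 lower in LTKO, with a median of 0.18. Vnn1, a pantetheinase, differed by −2.61 in LDKO and by 0.03 in LTKO. The fatty acid hydroxylase Cyp4a14 had 6.67 in LTKO and at most 3.76 elsewhere, and the liver fatty acid-binding protein Fabp1 had 4.45 in LTKO and at most 3.26 elsewhere, a gene below the filter. Both are abundant in hepatocytes, whose markers were highest in LTKO and include Fabp1, and the part of that tissue was not tested. Acaa1b, a peroxisomal thiolase, was 1.03 higher in the Irs1/2:FoxO1-flox control than in the Irs1/2-flox control, 0.74 higher in LDKO than in its control, and −0.33 in LTKO. Against the other control it was at −0.28 in LDKO and 0.70 in LTKO.

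**Figure D5:**
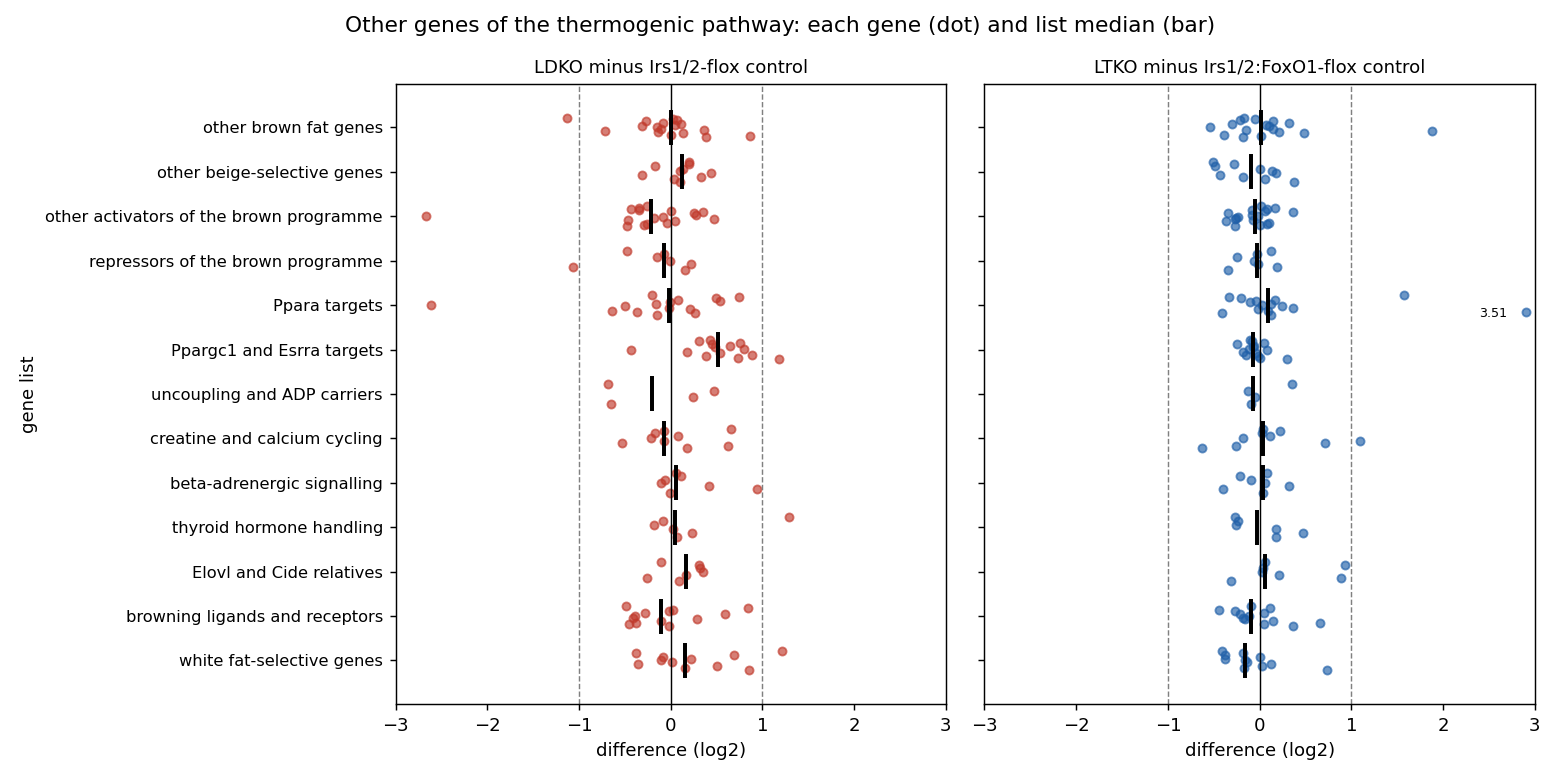
Differences (log2, horizontal axis) of the other genes of the pathway in 13 lists (rows), in LDKO (left) and LTKO (right), each from its own floxed control. Dots are genes, black bars list medians and dashed lines 2-fold, and the value 3.51 is Cyp4a14, drawn at the edge. The targets of the Ppargc1 coactivators and Esrra lie right of 0 in LDKO with a median of 0.51 and around 0 in LTKO.

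Of 17 other measured brown fat genes, 8 were higher and 9 lower in LDKO, with a median of −0.00, and in LTKO 9 were higher and 8 lower, with a median of 0.01. Against the other control 6 were higher and 11 lower in LDKO, with a median of −0.22, and 12 were higher and 5 lower in LTKO, with a median of 0.21. Cox8b, a cytochrome oxidase subunit of brown fat and muscle, was low on the same array as Cidea, with 6.05 in LDKO against 5.19 in the Irs1/2-flox control and 5.77 in LTKO against 5.76 in the Irs1/2:FoxO1-flox control, with a difference of 0.87 in LDKO and 0.30 against the other control. Fbxo31, an F-box protein used as a brown fat marker, had 6.99 in LDKO against 8.12 in the Irs1/2-flox control and 8.32 in LTKO against 8.50 in the Irs1/2:FoxO1-flox control. It was lower in LDKO than in both controls, by −1.13 and −1.51. Slc27a2, a fatty acid transporter and acyl-CoA synthetase that is abundant in liver, whose markers were highest in LTKO, was 7.12 in LTKO against 5.24 in the Irs1/2:FoxO1-flox control. That difference of 1.88 was 0.90 with its 2 probes averaged and 0.86 against the other control. Lhx8, a homeobox gene of classical brown fat, was dim, with −0.15 in LDKO and −0.54 in LTKO.

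Of 10 other measured genes linked to beige fat cells, 8 were higher and 2 lower in LDKO, with a median of 0.12, and 5 were higher and 5 lower in LTKO, with a median of −0.09. Over all genes 50.1% were higher in LDKO and 45.6% in LTKO. Against the other control 7 were higher and 3 lower in each Cre line, with medians of 0.08 in LDKO and 0.10 in LTKO. None was 2-fold apart from its own control, and 8 passed the filter. Of all genes past it, 1.2% were 2-fold apart in LDKO and 1.78% in LTKO. The proton-coupled amino acid transporter Slc36a2 had 8.08 in LDKO against 8.39 in the Irs1/2-flox control and 8.69 in LTKO against 9.12 in the Irs1/2:FoxO1-flox control. The ATP receptor P2rx5 differed by 0.43 in LDKO and 0.17 in LTKO, and the fatty acid transporter Slc27a1 by 0.20 in LDKO and −0.51 in LTKO. Against the other control Slc27a1 was at −0.42 in LDKO and 0.12 in LTKO, and Slc36a2 was at −1.04 and 0.30.

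The other activators of the brown programme were lower in LDKO in 13 of 18 cases, with a median of −0.22, and in LTKO in 10 of 18, with a median of −0.05. Over all genes 50.1% were higher in LDKO and 45.6% in LTKO, with medians of 0.00 and −0.02. Against the other control 12 of the 18 were lower in LDKO, with a median of −0.29. Irf4, a transcription factor that partners with Ppargc1a on the Ucp1 gene in mouse brown fat, was the 1 gene past 2-fold. It had 6.75 in LDKO against 9.42 in the Irs1/2-flox control and 8.59 in LTKO against 8.61 in the Irs1/2:FoxO1-flox control. LDKO was lowest for both Irf4 and Ppargc1a, as it was for 37.4% of all genes past the filter. Ebf2, which marks brown and beige precursors, differed by −0.47 in LDKO and −0.27 in LTKO, beside stromal progenitor markers that averaged 8.66 in LDKO against 9.20 in the Irs1/2-flox control and 8.95 in LTKO against 9.20 in the Irs1/2:FoxO1-flox control. The part of these cells was not tested. With its probes averaged Ebf2 was at −0.23 in LDKO and −0.04 in LTKO. Other factors were the retinoid receptors, of which Rxra was at −0.47 in LDKO and −0.08 in LTKO and Rxrg at 0.48 and −0.27. Of 7 measured repressors 5 were lower in each Cre line, with medians of −0.07 in LDKO and −0.03 in LTKO. Tle3, a corepressor that opposes Prdm16, was −1.06 in LDKO, −0.99 with a curve on level removed and −0.42 against the other control.

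Upstream of the set, the catalytic subunit of protein kinase A, Prkaca, had 9.49 in LDKO against 8.55 in the Irs1/2-flox control and 9.05 in LTKO against 9.44 in the Irs1/2:FoxO1-flox control, low on the same array as Cidea. Its LDKO difference of 0.94 was 0.41 with its 2 probes averaged and 0.05 against the other control. Over 7 measured genes of beta-adrenergic signalling the medians were 0.06 in LDKO and 0.04 in LTKO. Of the carriers, the skeletal muscle and brown fat uncoupling protein Ucp3 had 6.53 in LDKO against 7.18 in the Irs1/2-flox control and 7.51 in LTKO against 7.61 in the Irs1/2:FoxO1-flox control. It was lower in LDKO than in both controls, by −0.65 and −1.08, and the ADP carriers Slc25a4 and Slc25a5 were at 0.25 and 0.47 in LDKO. Thyroid hormone receptors differed little, with Thra at −0.18 and Thrb at −0.08 in LDKO, while the thyroid- and insulin-responsive gene Thrsp had 10.34 in LDKO and between 8.82 and 9.09 elsewhere. Among relatives of Elovl3, Elovl2 was at 0.89 and Elovl7 at 0.93 in LTKO, and at 0.65 and 0.67 against the other control. Hepatocyte and epididymal markers were highest on that array, and their part was not tested. Elovl6, which extends palmitate, was at 0.32 in LDKO and 0.04 in LTKO, and at −0.26 in LDKO against the other control.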

How the data were processed

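Arrays of 4 samples, 1 per genotype, were analysed as deposited. The authors' values are log2 signals per probe set, made with Affymetrix Expression Console and RMA per the submitters' processing notes. Neither their versions nor the set of arrays normalized together is given in the sources used here. RMA removes shifts of all genes together and compresses differences of dim probes. Array medians ran from 4.68 to 4.73.

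Of 41345 probes, 23521 had 1 gene symbol, 1814 several and 16010 none. Symbols were matched through gene identifiers to GRCm38.p6, used for names and promoters. A gene was its probe with the highest mean, which gave 22180 genes.

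Groups came from the source names in the labels. Comparisons were LDKO and LTKO against their own floxed controls, the Irs1/2:FoxO1-flox line against the Irs1/2-flox line, both without Cre, and LTKO against LDKO, with no test. Genes were counted at 2-fold among those whose highest array compared reached the median gene. The genes named were all 10 of the set, up to 4 per list by size of difference in LDKO or LTKO, and the 3 most alike genes. Tfam was named after its values were seen. The 13 pathway and 8 marker lists held 217 symbols, of which 198 were measured and 19 not matched. Members and lists were chosen with earlier results of these data known. Alternatives were 1.5-fold and 3-fold, no filter or one at the 70th percentile, all probes averaged, quantile normalization again, a loess curve of span 0.3 removed, the other control and both controls averaged. With no replicates, no exact or model test was possible. Steps were tested on simulated data. Python 3.11.15, numpy 2.4.6, pandas 2.3.3, statsmodels 0.14.6 and matplotlib 3.10.9 were used.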

Additional observations from a re-analysis of the deposited data

Results flagged for a closer look

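Genes of the set and of the pathway lists are given here where LDKO or LTKO was 2-fold apart from its own control and the other Cre line had the opposite sign. Genes only in the marker lists were left out, such as Slc2a4 at 1.03 in LDKO and −0.45 in LTKO. With 1 array each the difference between the lines was not tested. The value is the LTKO difference minus the LDKO difference. It was −1.76 for Cidea, with −0.29 in LTKO and 1.46 in LDKO, and it holds the 1.25 between the controls, since directly LTKO stood −0.50 from LDKO. It was −1.62 for Psat1, an enzyme of serine synthesis, with −0.40 in LTKO and 1.22 in LDKO. It holds the 0.98 between the controls, and the LDKO value of Psat1 was 0.24 against the other control and 0.73 against the mean of both. It was −1.56 for Thrsp, with −0.27 in LTKO and 1.29 in LDKO. Positive values were 3.88 for Cyp4a14, 2.64 for Vnn1, 2.59 for Slc27a2, 1.25 for Tle3 and 1.17 for the creatine kinase Ckb, which had 1.09 in LTKO and −0.08 in LDKO. Cyp4a14 was below the filter in the LDKO comparison, so its sign there is that of a dim signal. The Irs1/2:FoxO1-flox control was itself at −0.60 from the Irs1/2-flox control for Cyp4a14, −1.02 for Slc27a2, −0.64 for Tle3 and −0.55 for Ckb, against 0.10 for Vnn1 and 0.04 for Thrsp. Directly, LTKO stood from LDKO by 3.27 for Cyp4a14, 2.74 for Vnn1, 1.57 for Slc27a2, 0.61 for Tle3, 0.62 for Ckb, −0.64 for Psat1 and −1.52 for Thrsp. Against the other control Ckb was at 0.54 in LTKO. Hepatocyte and epididymal markers were highest on the LTKO array, and their part in Ckb was not tested.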

How the results depend on the processing

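No paired analysis was possible because each group has 1 array. Cidea passed 2-fold in LDKO under the filters, the probe average and both rescalings, with 1.52 after quantile normalization again and 1.53 with the curve removed, but 0 genes of the set did at 3-fold, against the other control (0.21 for Cidea) or against the mean of both controls (0.84). In LTKO 1 gene of the set passed 1.5-fold, Ucp1. Between the controls 0 genes of the set passed 3-fold. With LTKO directly against LDKO 0 passed at 3-fold, and 0 after quantile normalization again or with the curve removed, where Ppargc1a was at 0.99. Over all genes, the 138 apart in LDKO were 777 at 1.5-fold and 30 at 3-fold, and the 205 in LTKO were 509, 77 and, once genes had to reach the 70th percentile, 83. With the other control the LTKO count was 144, of which 97 were higher. The 88 between the controls were 520 and 12, and the 246 of LTKO against LDKO were 931, 65 and, at the 70th percentile, 143. No member difference that was past 2-fold changed sign under any alternative run. Probe averaging and rescaling moved a member difference by at most 0.38, that of Dio2 between LTKO and LDKO. Dim genes such as Dio2 and Elovl3 lie where signal limits what can be seen.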

Other observations

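Genes tied to thermogenesis by other routes were read as well. Of 9 genes of creatine and calcium cycling, which can use energy without uncoupling protein, 4 were higher in LDKO, with a median of −0.08, and 6 in LTKO, with a median of 0.03. Over all genes 50.1% were higher in LDKO and 45.6% in LTKO. Of the 5 cycling genes past the filter, 0 were 2-fold apart in LDKO, where 1.2% of all genes were. In LTKO it was 1 of 5, Ckb at 1.09, where 1.78% were, and Ckb was at 0.54 against the other control. The creatine transporter Slc6a8 was at −0.53 in LDKO and 0.72 in LTKO, and Gamt, which makes creatine, at 0.63 and −0.26. Against the other control Slc6a8 was at −0.16 in LDKO and 0.35 in LTKO. Of 13 ligands and receptors linked to browning, 4 were higher and 9 lower in LDKO, and 6 were higher and 7 lower in LTKO. None of the 11 past the filter in LDKO or the 10 in LTKO was 2-fold apart. The natriuretic peptide clearance receptor Npr3 had 10.93 in LDKO and at most 10.11 elsewhere, and Bmp7, which promotes brown fat cell formation in mice, was at −0.38 in LDKO and 0.66 in LTKO. Against the other control Bmp7 was at −0.25 in LDKO and 0.53 in LTKO. Hepatocyte and epididymal markers were highest on the LTKO array, and their part in Ckb, Slc6a8 and Bmp7 was not tested.

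Of 11 genes more typical of white than brown fat, 7 were higher in LDKO and 4 in LTKO, with medians of 0.16 and −0.16. Over all genes 50.1% were higher in LDKO and 45.6% in LTKO. Against the other control 7 were higher and 4 lower in LDKO, with a median of 0.07. In LTKO 5 were then higher and 6 lower, with a median of −0.03. Slc7a10, an amino acid transporter of white fat cells, was at 0.69 in LDKO and −0.37 in LTKO, and at 0.20 and 0.11 against the other control. Lep, the fat cell hormone leptin, had 11.09 in LDKO against 10.24 in the Irs1/2-flox control and 10.20 in LTKO against 9.47 in the Irs1/2:FoxO1-flox control. Its differences of 0.85 in LDKO and 0.74 in LTKO became 1.62 and −0.03 against the other control. Psat1 had 7.85 in LDKO against 6.64 in the Irs1/2-flox control and 7.21 in LTKO against 7.61 in the Irs1/2:FoxO1-flox control, the same order of arrays as Cidea.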
